A study of Mus musculus with 18 samples.

Results

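The genes described here encode the machinery that burns fatty acids in the liver and turns part of the product into ketone bodies. They were listed by symbol, with no threshold on measured values, though with earlier results of these data known, and all 42 were found among the 24421 symbols of the count table. The list was split by compartment into 20 mitochondrial genes, 10 peroxisomal genes, 2 ketone body genes (Bdh1 and Acat1) and 10 further genes known as targets or partners of the nuclear receptor PPARalpha. Of the 42 genes, 5 (Crat, Mlycd, Acad11, Eci2 and Slc27a2) have products known from more than 1 compartment and were kept in the compartment of the list. All 42 passed the filter on low counts, and 38 had at least 10 CPM on average (CPM are counts scaled to a library of common size).

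RNA was measured by 3′ tag sequencing in 18 mouse livers, 6 per group. The groups were control wild-type (WT) mice, tumour-bearing WT mice and tumour-bearing Alb-Cre+/+;Stat3f/f mice, whose livers are called Stat3-deleted below. Alb-Cre expresses Cre recombinase from the albumin promoter, mainly in hepatocytes, so that the floxed part of Stat3 is lost there and not in most other liver cells. Stat3 relays signals of the IL-6 family of cytokines to the nucleus. The tumour line, PDA.69, is given as a T-cell-low pancreatic ductal adenocarcinoma line derived from KPC mice, and the labels list it for the control livers as well. They give no sex, age, feeding state, hour of collection, site or time of implantation, and no group holds Stat3-deleted livers without a tumour. An effect of the deletion that does not need the tumour and one that does therefore cannot be told apart. The labels number the livers but do not say that they came from separate cages or cohorts, so p-values measure the spread between these livers.

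Long-chain fatty acids enter mitochondria as carnitine esters and are shortened in repeated rounds of dehydrogenation, hydration, a second dehydrogenation and thiolysis, each round releasing acetyl-CoA. Peroxisomes shorten very long and branched chains first and pass the products on. In the fasting liver much of the acetyl-CoA is made into acetoacetate and 3-hydroxybutyrate, and PPARalpha, helped by the coactivator PGC-1alpha, is the main activator of genes at each of these steps.

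In tumour-bearing mice, 11 of the 42 genes were higher in Stat3-deleted than in WT livers and 0 lower, where 2.89% of all 11218 genes tested were called higher and 3.23% lower. The called genes were 5 of the 20 mitochondrial, 2 of the 10 peroxisomal and 1 of the 2 ketone body genes and 3 of the 10 PPARalpha targets, and the other 31 did not pass the test. With libraries scaled by their totals alone, 424 of the 694 genes called were higher, rather than 324 of 686, and 13 of the 42 were called higher. Among the called genes the largest increases were those of the thioesterase gene Acot1 (4-fold on average, log2 fold change 2.00), the coactivator gene Ppargc1a (1.498) and the peroxisome division gene Pex11a (1.19). Tumour-bearing WT livers set against controls gave 0 called genes of the 42 (2.25% of all genes were called), and 32 of 42 fold changes lay below 0. Stat3-deleted livers set against controls gave 3 higher, where 2.19% of all genes were. In these bulk samples fewer cells of a type and less RNA per cell cannot be told apart.

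Promoters of 5 of the genes are shown, chosen for the smallest adjusted p or for a motif match. Fabp1 among them was not called in any comparison. Pex11a and Acot1 had the smallest adjusted p of the list. Cpt2 and Hadha are the called genes whose promoter holds the letters TTCNNNGAA, the core of a STAT binding element, and Fabp1 is the only gene of the list with 2 copies of AGGNCA with 1 base between them, the direct repeat bound by PPARalpha with its partner RXR. The windows run from 250 bases before to 50 bases after the start of the gene, 5′ to 3′ on the strand of the gene, in RefSeq's GRCm38.p6, the assembly of mm10. They lie at chr7:79743082-79743381 (minus strand, Pex11a), chr12:84009252-84009551 (plus strand, Acot1), chr4:107923540-107923839 (minus strand, Cpt2), chr5:30154931-30155230 (minus strand, Hadha) and chr6:71199629-71199928 (plus strand, Fabp1). Capitals mark a match to either motif.
Pex11a: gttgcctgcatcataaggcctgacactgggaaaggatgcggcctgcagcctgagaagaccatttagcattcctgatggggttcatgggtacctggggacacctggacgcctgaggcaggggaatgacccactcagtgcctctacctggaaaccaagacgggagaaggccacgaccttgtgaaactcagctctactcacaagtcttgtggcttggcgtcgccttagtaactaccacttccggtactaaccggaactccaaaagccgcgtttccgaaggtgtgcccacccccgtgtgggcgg
Acot1: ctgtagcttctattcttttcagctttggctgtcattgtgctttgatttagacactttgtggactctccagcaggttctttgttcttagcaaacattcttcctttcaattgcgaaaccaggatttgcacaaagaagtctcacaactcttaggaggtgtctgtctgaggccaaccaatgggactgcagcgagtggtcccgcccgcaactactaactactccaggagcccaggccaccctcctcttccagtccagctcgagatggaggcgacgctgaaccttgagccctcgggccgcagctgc
Cpt2: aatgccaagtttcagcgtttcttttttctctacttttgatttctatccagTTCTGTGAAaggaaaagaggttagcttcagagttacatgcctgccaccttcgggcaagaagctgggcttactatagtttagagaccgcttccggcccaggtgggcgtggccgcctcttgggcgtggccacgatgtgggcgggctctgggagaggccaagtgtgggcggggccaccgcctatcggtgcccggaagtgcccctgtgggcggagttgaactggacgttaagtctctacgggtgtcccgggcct
Hadha: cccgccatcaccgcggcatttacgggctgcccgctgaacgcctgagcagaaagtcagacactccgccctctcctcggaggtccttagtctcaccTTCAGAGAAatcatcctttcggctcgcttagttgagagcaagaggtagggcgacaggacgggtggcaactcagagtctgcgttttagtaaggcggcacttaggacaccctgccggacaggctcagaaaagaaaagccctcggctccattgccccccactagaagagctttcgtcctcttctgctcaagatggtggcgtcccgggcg
Fabp1: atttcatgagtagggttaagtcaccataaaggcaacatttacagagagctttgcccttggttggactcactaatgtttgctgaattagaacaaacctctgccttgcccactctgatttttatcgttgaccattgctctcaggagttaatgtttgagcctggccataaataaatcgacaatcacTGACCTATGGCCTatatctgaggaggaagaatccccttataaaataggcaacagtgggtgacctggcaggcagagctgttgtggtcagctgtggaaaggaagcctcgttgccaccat
RefSeq's table held a promoter for 37 of the 42 genes (40 promoters) and for 11 of the 11 called genes. Both motifs were searched on both strands, and no promoter of the list held both. The STAT element, which reads the same on both strands, occurred in 3 of the 40 promoters (7.50%) and in 8.30% of all 32851 promoters of the table. Counted from the first base of the gene as 0, its matches began at position -200 in Cpt2, -156 in Hadha and -125 in Hadhb. Hadha and Hadhb are read in opposite directions from starts 272 bases apart, their windows share 228 bases, and the match lies in the shared stretch. The direct repeat occurred in 1 of the 40 promoters and in 0.381% of all promoters. In Fabp1 it began at position -67 and lay on the minus strand, where it reads AGGCCATAGGTCA. Of the 11 called genes, 2 had the STAT element and 0 had the direct repeat in these windows. A match is a run of letters and not a measured binding site.

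Stat3 averaged 112 ± 19.1 CPM in control, 213 ± 38.3 CPM in tumour-bearing WT and 118 ± 12.8 CPM in Stat3-deleted livers (SD, n = 6). The position of the Stat3 tags relative to the floxed part was not analysed here, so these levels do not measure the deletion. Saa1, an acute-phase gene known to depend on Stat3, was at 5493 to 48555 CPM in tumour-bearing WT and at 10.7 to 161 CPM in Stat3-deleted livers. Library totals ran from 5212265 to 9545442 counts, and reads of the 42 genes made up 1.52 to 1.98% of a control library, 0.732 to 1.63% of a tumour-bearing WT library and 1.56 to 2.27% of a Stat3-deleted library. These are shares of raw totals, before the scaling used in the tests. The 20 highest genes of a library made up 24.4 to 26.1% of it in control livers. In tumour-bearing WT livers they made up 24.5 to 35.1%, and in Stat3-deleted livers 26.4 to 29.7%. Among the tumour-bearing WT livers, replicate 6 stood apart for several genes of the list. It had the highest Cpt1a (232 CPM, others 117 to 132) and the lowest Bdh1 (81.7 CPM, others 171 to 210). Its level was also the lowest of the group for Fabp1 (771 CPM) and for Acaa1b (139 CPM). Without this library the numbers of genes called were 1 rather than 0 between tumour-bearing WT and control, 16 rather than 11 between Stat3-deleted and tumour-bearing WT (15 higher, 1 lower), and 5 rather than 3 between Stat3-deleted and control. Over all genes tested, 1.81%, 8.04% and 6.95% were called in these fits. With the library kept, 2.25% were called in the first comparison. In the second 2.89% were higher and 3.23% lower, and in the third 2.19% and 2.66%. In control replicate 2, Acot3 stood at 55.8 CPM (others 0.548 to 3.28). The numbers in the labels fall into a lower and a higher run whose meaning is not stated. All 6 Stat3-deleted livers are in the lower run, with replicates 1 to 3 of each WT group. Within that run every Stat3-deleted number lies below every WT number. Fits within the run, or with the run as a block, therefore cannot tell genotype from the order of the numbers.

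Among the genes for entry of fatty acids into the mitochondrion, 1 was called between Stat3-deleted and tumour-bearing WT livers. Cpt2, which returns the acyl group from carnitine to coenzyme A at the inner membrane, ranged from 96.2 to 156 CPM in tumour-bearing WT (median 108) and from 156 to 170 CPM in Stat3-deleted livers (median 165). One WT liver, replicate 5, reached the lowest Stat3-deleted liver, and the other five lay well below. The mean rose from 115 ± 21.5 to 163 ± 5.83 CPM (SD, n = 6). The log2 fold change was 0.51 (SE 0.12, edgeR quasi-likelihood test, Benjamini-Hochberg adjusted p = 0.0131). Cpt1a, the outer-membrane enzyme that makes the carnitine ester and is the known control point of entry, differed by 0.30 (SE 0.18, adjusted p = 0.383), with 174 ± 41.3 against 142 ± 44.5 CPM. The carrier Slc25a20 differed by 0.05 (SE 0.17), the carnitine acetyltransferase Crat by 0.28 (SE 0.17) and the malonyl-CoA decarboxylase Mlycd by 0.19 (SE 0.13), and none of them passed the test.

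Of the mitochondrial acyl-CoA dehydrogenases, which start each round according to chain length, Acadvl and Acadl were called. Acadvl, the very-long-chain enzyme on chromosome 11 (70010183 to 70015428), was at 239 to 333 CPM in tumour-bearing WT (median 295) and at 359 to 421 CPM in Stat3-deleted livers (median 376). The groups did not overlap. Its mean was 289 ± 35.5 CPM in the former and 383 ± 25.8 CPM in the latter (0.40, SE 0.11, adjusted p = 0.0288). Acadl, the long-chain enzyme, ranged from 126 to 212 CPM (median 174) in tumour-bearing WT and from 212 to 306 CPM (median 255) in Stat3-deleted livers, so that the groups met at 1 liver each. Its log2 fold change was 0.55 (SE 0.14, adjusted p = 0.0225). The medium-chain gene Acadm (0.64, SE 0.22, adjusted p = 0.0926) and the short-chain gene Acads (0.43, SE 0.16, adjusted p = 0.131) did not pass the test. Acadm owed its mean of 167 ± 82.0 CPM in Stat3-deleted livers in part to replicate 4 at 325 CPM, where the others had 113 to 191 CPM. Whether long-chain genes differed more than short-chain genes was not tested.

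The trifunctional protein carries out the later steps of the round on long chains. Hadha, its alpha subunit, was at 301 to 481 CPM in tumour-bearing WT (median 366) and at 494 to 609 CPM in Stat3-deleted livers (median 529), and the groups did not overlap. The mean rose from 376 ± 58.7 to 536 ± 40.8 CPM (0.51, SE 0.13, adjusted p = 0.0179). Hadhb, the beta subunit, whose start is the neighbour of that of Hadha, differed by 0.44 (SE 0.23, adjusted p = 0.302), with 56.8 ± 15.99 against 41.9 ± 13.6 CPM. Its difference was close in size and its relative spread wider. The remaining enzymes of the mitochondrial round gave 0.56 for Hadh (adjusted p = 0.0957), 0.38 for Decr1 (0.0806), 0.43 for Eci1 (0.183), 0.33 for Acaa2 (0.208) and -0.25 for Echs1 (0.323). The electron transfer genes, which pass the electrons of the first step to the respiratory chain, gave -0.01 for Etfa, 0.17 for Etfb and 0.11 for Etfdh.

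Acot2, a mitochondrial thioesterase that splits acyl-CoA into free acid and coenzyme A, ranged from 15.7 to 43.7 CPM (median 22.3) in tumour-bearing WT and from 30.6 to 68.9 CPM (median 40.2) in Stat3-deleted livers. WT replicate 5 lay inside the range of the other group. The log2 fold change was 0.83 (SE 0.23, adjusted p = 0.032). Of the 20 mitochondrial genes 5 were thus higher and 15 did not pass the test, with a median log2 fold change of 0.39 where the median of all genes tested was -0.03. Of all genes 2.89% were called higher. An unadjusted p under 0.05 was reached by 11 of the 20, all higher, against 8.70% of all genes higher and 10.7% lower.

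**Figure D1:**
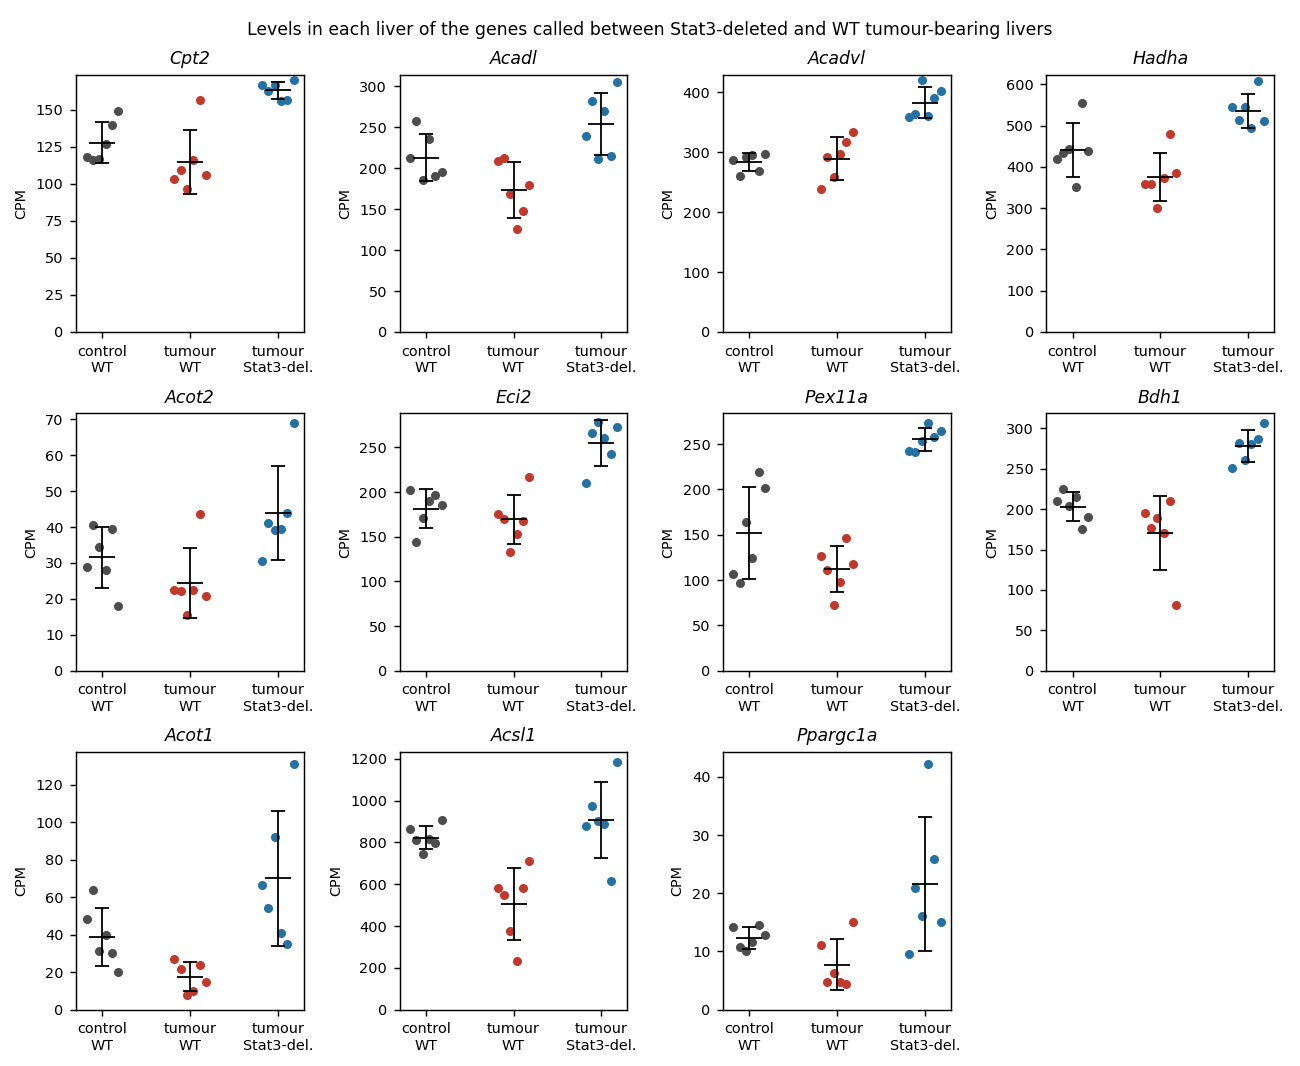
Level in CPM (vertical axes, each from 0) of the 11 genes that passed the test between Stat3-deleted and WT livers of tumour-bearing mice. Each point is 1 liver, bars are the mean ± SD of 6 livers, and for Acadvl, Hadha, Pex11a, Bdh1 and Acot1 every Stat3-deleted liver lies above every tumour-bearing WT liver.

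Peroxisomal genes had a median of 0.61, and 2 of the 10 were called higher, where 2.89% of all genes were. Pex11a, a membrane protein that divides and elongates peroxisomes, stood at 73.0 to 147 CPM in tumour-bearing WT (median 114), at 241 to 274 CPM in Stat3-deleted (median 255) and at 97.1 to 219 CPM in control livers (median 144). Every Stat3-deleted liver was above every liver of both other groups. The mean rose from 112 ± 25.2 to 255 ± 12.5 CPM (1.19, SE 0.19), and the adjusted p of 0.000284 was the smallest of the list. Eci2, an enoyl-CoA isomerase needed for unsaturated chains, ranged from 133 to 217 CPM (median 169) in tumour-bearing WT and from 210 to 279 CPM (median 263) in Stat3-deleted livers. Tumour-bearing WT replicate 6 was the one WT liver inside that range. The difference was 0.59 (SE 0.13, adjusted p = 0.00604).

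Acaa1b, a peroxisomal thiolase that ends the round, varied widely between WT livers. In tumour-bearing WT it ran from 139 to 1716 CPM (median 517), against 1113 to 2296 CPM (median 1390) in Stat3-deleted livers. WT replicate 5 was high and the other five lay below all Stat3-deleted livers. The difference of 1.21 (SE 0.38) had an adjusted p of 0.063. Acaa1a, its near-identical neighbour on chromosome 9, differed by 0.21 (SE 0.17, adjusted p = 0.527), and reads of the pair may have been divided between them. Their summed counts differed by 1.08 with an adjusted p of 0.0415. Among the other peroxisomal genes, Ehhadh, the bifunctional enzyme, averaged only 4.79 ± 3.15 and 9.15 ± 4.56 CPM (0.93, adjusted p = 0.166). Decr2, which handles unsaturated chains, differed by 0.63 (SE 0.21, adjusted p = 0.079). Crot, which moves shortened chains out as carnitine esters, differed by -0.39 (SE 0.19, adjusted p = 0.257), with 522 ± 52.0 against 682 ± 227 CPM. Without tumour-bearing WT replicate 6, whose Crot level was the lowest of its group (331 CPM), the lower level of Crot passed the test (adjusted p = 0.0322). Acad11 (0.20, SE 0.20), Acot3 (1.13, SE 0.84) and Acot4 (0.23, SE 0.39) did not pass the test.

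Of the ketone body genes, Bdh1, which interconverts acetoacetate and 3-hydroxybutyrate, was at 81.7 to 210 CPM in tumour-bearing WT (median 183), at 251 to 307 CPM in Stat3-deleted (median 281) and at 175 to 225 CPM in control livers (median 207). Stat3-deleted livers overlapped with neither group. The mean rose from 171 ± 45.7 to 278 ± 19.97 CPM (0.70, SE 0.16, adjusted p = 0.00924). Acat1, the mitochondrial acetoacetyl-CoA thiolase that joins 2 acetyl-CoA, differed by 0.38 (SE 0.19, adjusted p = 0.279), with 286 ± 60.3 against 221 ± 62.5 CPM.

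Among the 10 PPARalpha targets and partners 3 were called higher, where 2.89% of all genes were. The median over the 10 was 0.42. Acot1, a cytosolic thioesterase used widely as a readout of PPARalpha activity, was at 7.95 to 27.2 CPM in tumour-bearing WT (median 18.4), at 35.3 to 131 CPM in Stat3-deleted (median 60.5) and at 19.9 to 63.7 CPM in control livers (median 35.8). The tumour-bearing groups did not overlap. The mean rose from 17.6 ± 7.84 to 70.1 ± 36.1 CPM (2.00, SE 0.34, adjusted p = 0.000604). Acot1 (chromosome 12, 84009502 to 84017670) is the near-identical neighbour of Acot2 (83987861 to 83993877), so the split of reads between them is uncertain. Their summed counts rose by 1.43 (adjusted p = 0.00124).

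Acsl1, the long-chain acyl-CoA synthetase that activates fatty acids, ranged from 233 to 710 CPM (median 564) in tumour-bearing WT and from 615 to 1183 CPM (median 894) in Stat3-deleted livers. The ranges overlapped between 615 and 710 CPM. Its mean rose from 505 ± 171 to 906 ± 183 CPM (0.84, SE 0.20, adjusted p = 0.0116). Ppargc1a, which encodes the coactivator PGC-1alpha, was at 4.35 to 15.1 CPM in tumour-bearing WT (median 5.502) and at 9.55 to 42.3 CPM in Stat3-deleted livers (median 18.5). Tumour-bearing WT replicate 6 was again the highest of its group. The difference was 1.498 (SE 0.32, adjusted p = 0.00596).

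The other 7 genes of this compartment did not pass the test. Fabp1, the abundant fatty acid binding protein of the hepatocyte, averaged 3336 ± 1722 CPM in tumour-bearing WT livers and 5819 ± 1880 CPM in Stat3-deleted livers (0.80, SE 0.34, adjusted p = 0.186). Slc27a2, a transporter and very-long-chain acyl-CoA synthetase, differed by 0.46 (SE 0.15, adjusted p = 0.0641) and Acot12, a cytosolic acetyl-CoA hydrolase, by 0.39 (SE 0.14, adjusted p = 0.113). Differences under 0.20 were found for the pantetheinase Vnn1 (0.16) and the lipid droplet coat protein Plin2 (0.06). The translocase Cd36 (-0.23, adjusted p = 0.63) and the pyruvate dehydrogenase kinase Pdk4 (-0.63, adjusted p = 0.714) lay below 0. Pdk4 had 0 to 22 counts per library, and no difference was detectable at this depth.

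Over the whole list, 37 of 42 fold changes between Stat3-deleted and tumour-bearing WT livers lay above 0 (88.1%), against 45.9% of all genes tested. An unadjusted p under 0.05 with a higher level was found for 23 of the 42 and for 8.70% of all genes. A lower level at that p was found for 0 of the 42 and for 10.7% of all genes. The groups did not overlap for 5 genes, all higher (Acadvl, Hadha, Pex11a, Bdh1 and Acot1), against 1.40% of all genes. Genes of the list were mostly abundant, and of all genes that averaged 10 CPM or more 4.45% were called higher. The calls of Cpt2, Eci2, Pex11a, Bdh1, Acot1, Acsl1 and Ppargc1a were made in each of 18 fits that left out 1 library. Without tumour-bearing WT replicate 3 the count fell to these 7, with Hadha at an adjusted p of 0.0546, Acadl at 0.0504, Acadvl at 0.0766 and Acot2 at 0.0851. In that fit 4.44% of all genes were called, and 213 of these 499 were higher. Acadl also missed the threshold without WT replicate 4 and without Stat3-deleted replicate 2 or 6 (adjusted p = 0.0607 to 0.0623). Acadvl did so without WT replicate 1 and without Stat3-deleted replicate 3, 5 or 6 (0.0564 to 0.0714), and Acot2 without WT replicate 1, 2 or 4, all tumour-bearing, and without Stat3-deleted replicate 5 or 6 (0.0545 to 0.0964). Within the lower run of label numbers, the only one with livers of both groups, 17 genes were higher and 1 (Crot) lower, where 9.21% of all genes were called, and Acadl was the only called gene to miss the threshold there (0.38, adjusted p = 0.14).

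**Figure D2:**
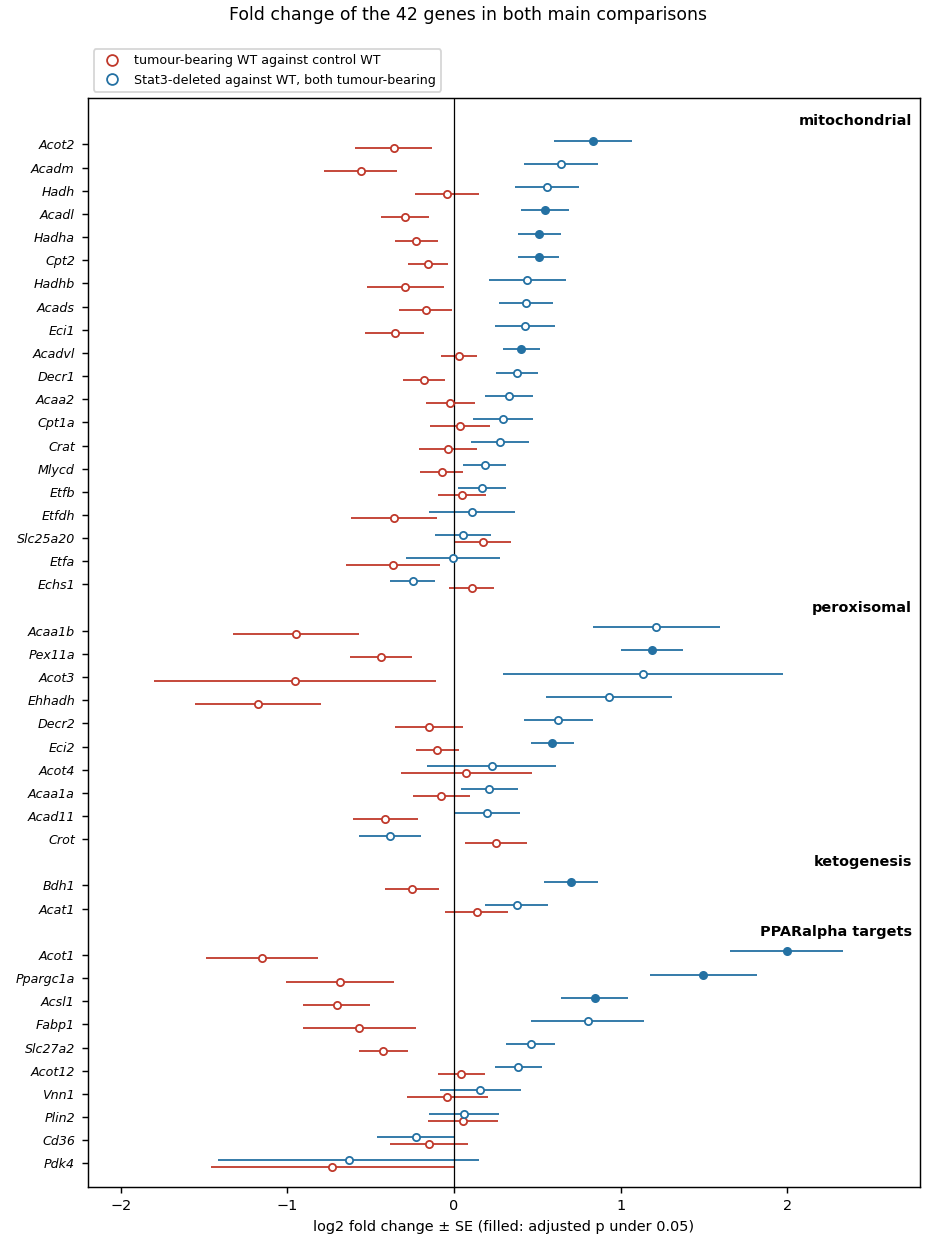
Log2 fold change (horizontal axis) ± SE of each of the 42 genes in tumour-bearing WT against control livers (red) and in Stat3-deleted against WT tumour-bearing livers (blue), by compartment; filled points passed the test. Filled points occur for 11 genes in blue and for 0 in red, and both comparisons share the tumour-bearing WT livers, so a low value there moves the red point left and the blue point right.

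The first of the WT comparisons asks how the tumour itself goes with these genes. In tumour-bearing WT livers against control livers 0 of the 42 genes passed the test, where 2.25% of all genes did (1.76% higher, 0.490% lower). An unadjusted p under 0.05 was found for 9 of the 42, all lower, against 7.56% of all genes lower and 8.63% higher. Of the fold changes 32 of 42 lay below 0, where 49.4% of all genes did, and the median was -0.17 over the list, -0.16 for mitochondrial, -0.28 for peroxisomal, -0.06 for ketone body genes and -0.50 for PPARalpha targets. Scaling by library totals without TMM shifted the median of all genes to -0.19 and that of the list to -0.36, and 115 of 292 calls over all genes were then higher, rather than 197 of 252.

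Acsl1 had the smallest p of the list in this comparison and was the only one of the 42 whose groups did not overlap, where 0.464% of all genes were lower without overlap. It ran from 745 to 905 CPM in control (median 814) and from 233 to 710 CPM in tumour-bearing WT livers (median 564). Its log2 fold change of -0.71 (SE 0.20) had an adjusted p of 0.0634 by edgeR. Acot1 was at 39.0 ± 15.5 CPM in control and 17.6 ± 7.84 CPM in tumour-bearing WT livers, a difference of -1.15 (SE 0.33, adjusted p = 0.0727), and Ehhadh at 10.9 ± 4.60 and 4.79 ± 3.15 CPM, a difference of -1.18 (SE 0.38, adjusted p = 0.11). DESeq2 called these 3 genes lower. limma voom called Acsl1 and Acaa1b, and scaling by library totals Acot1, Slc27a2 and Acsl1.

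The other genes with an unadjusted p under 0.05 were Slc27a2 (-0.42, adjusted p = 0.137), Acaa1b (-0.95, 0.211), Acadm (-0.56, 0.206), Pex11a (-0.44, 0.236), Ppargc1a (-0.69, 0.297) and Acad11 (-0.41, 0.30). Acadm averaged 158 ± 14.1 CPM in control and 107 ± 26.9 CPM in tumour-bearing WT livers, and 6 of 6 tumour-bearing livers lay below the control mean. At the top of the list were Crot (0.25, SE 0.19), Slc25a20 (0.17, SE 0.17) and the ketone body gene Acat1 (0.14, SE 0.19). Bdh1 differed by -0.25 (SE 0.16, adjusted p = 0.463), Cpt1a by 0.03 (SE 0.18), Cpt2 by -0.16 (SE 0.12) and Hadha by -0.23 (SE 0.13). Within the lower and the higher run of label numbers taken alone, 0 of the 42 were called in either run, where 0.425% and 0.459% of all genes were. In the lower run 6 of the 42 were lower and 0 higher at an unadjusted p under 0.05, with 6 fold changes above 0. In the higher run 6 were lower and 2 higher, with 18 of 42 fold changes above 0. The shares of all genes at that p, or above 0, within a run were not computed. The median log2 fold change was -0.205 for the list and -0.0064 for all genes in the lower run. In the higher run it was -0.1314 and 0.006. With 1 library left out the count was 0 to 2, and the 2 were Acot1 and Acsl1 without tumour-bearing WT replicate 1. In that fit 4.07% of all genes were called.

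**Figure D3:**
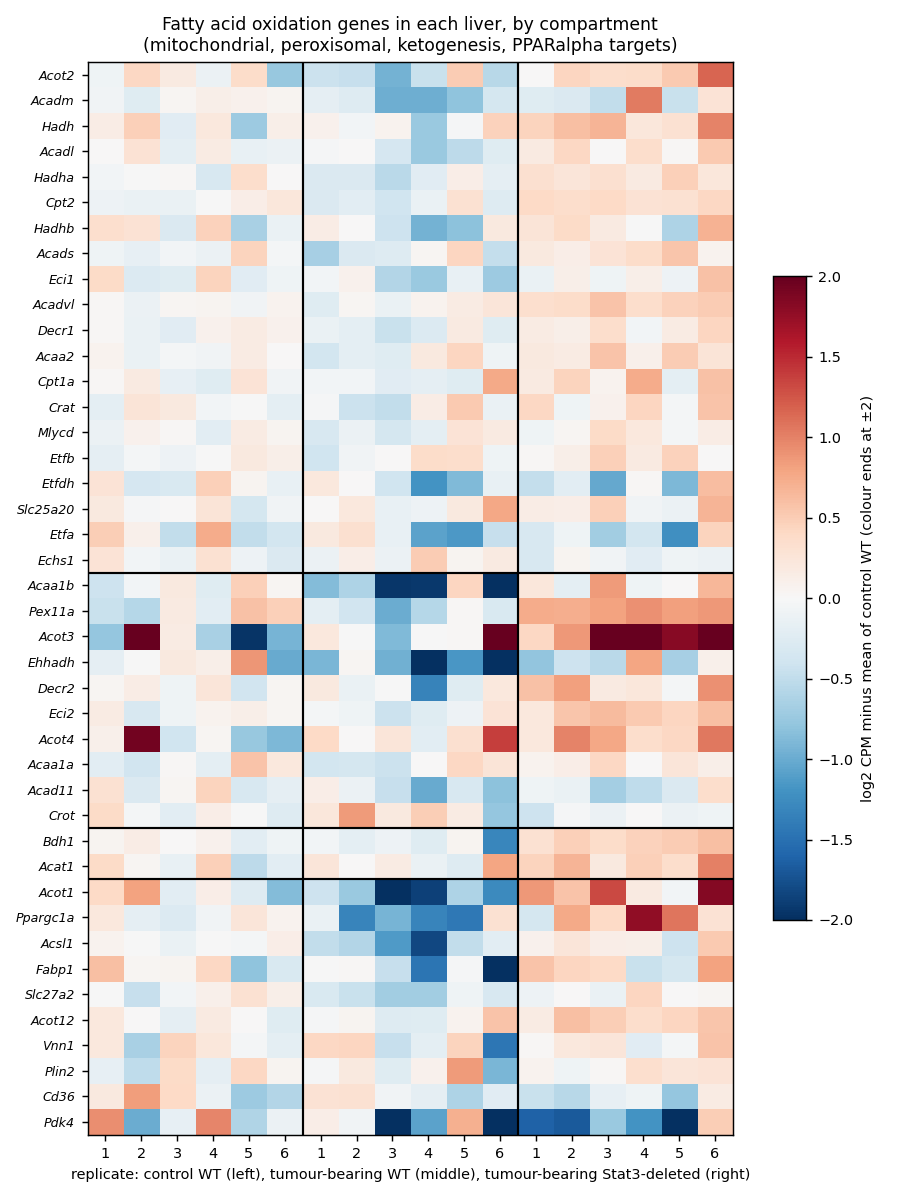
Log2 CPM of each of the 42 genes (rows, by compartment) in each of the 18 livers (columns, by group), minus the mean of the 6 control livers, in colour from -2 (blue) to 2 (red). In the middle block replicates 3 and 4 are the bluest columns, and in the right block replicate 6 is the reddest.

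Averaged over the genes of a compartment, tumour-bearing WT livers spread widely. Relative to the control mean on the log2 scale, PPARalpha targets lay between -0.90 and -0.06 in tumour-bearing WT, between -0.19 and 0.27 in control and between -0.25 and 0.56 in Stat3-deleted livers. In tumour-bearing WT replicates 3, 4 and 6 the mean of these targets was -0.90, -0.87 and -0.88, and in the other three it was -0.22 or above. Mitochondrial genes ran from -0.35 to -0.05, from -0.10 to 0.11 and from 0.00 to 0.45 in the same order. The ketone body pair ran between -0.26 and 0.09 in tumour-bearing WT and between 0.28 and 0.81 in Stat3-deleted livers. Peroxisomal genes ran from -0.72 to -0.05 and from 0.12 to 0.73. In each of the 4 compartments except the PPARalpha targets all Stat3-deleted livers lay above all tumour-bearing WT livers, and Stat3-deleted replicate 6 was the highest of its group in every compartment. The mean of the PPARalpha targets gives Pdk4, with 0 to 22 counts per library, the same weight as the other genes. Pdk4 was at 0 CPM in tumour-bearing WT replicate 3 and Stat3-deleted replicate 5, the lowest livers of their groups for this mean. The mean without Pdk4 was not computed.

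**Figure D4:**
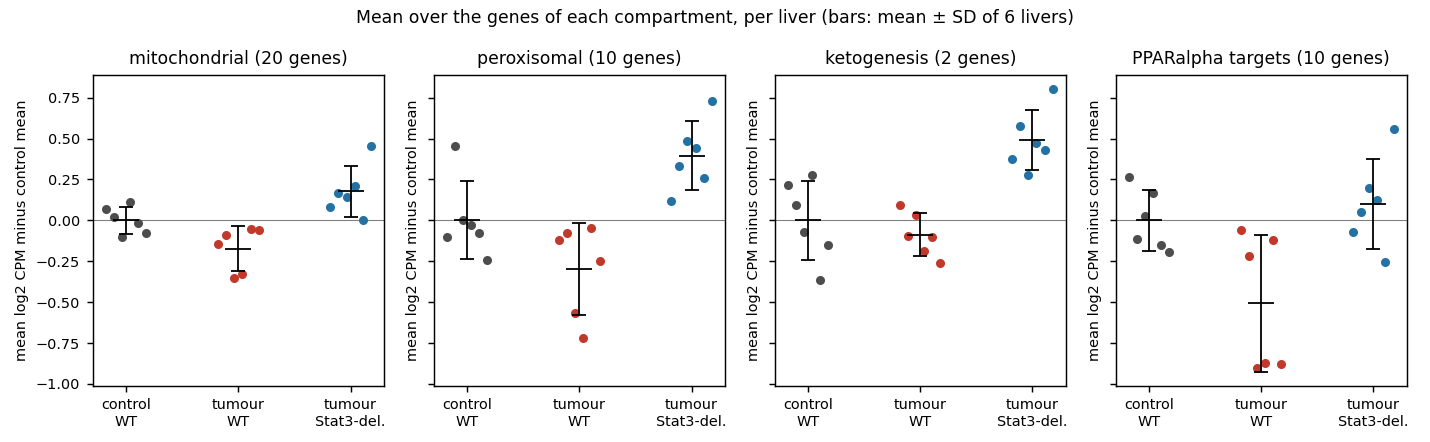
Mean over the genes of each compartment of log2 CPM minus the control mean (vertical axis) in each liver (points), with mean ± SD of 6 livers (bars). The 6 tumour-bearing WT livers lie between -0.35 and -0.05 for the mitochondrial genes and between -0.90 and -0.06 for the PPARalpha targets.

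Stat3-deleted tumour-bearing livers were set against tumour-free WT controls last, a comparison in which tumour and genotype differ together. Of the 42 genes 3 were higher and 0 lower, where 2.19% of all genes were called higher and 2.66% lower. Pex11a averaged 152 ± 50.7 CPM in control and 255 ± 12.5 CPM in Stat3-deleted livers (0.75, SE 0.19, adjusted p = 0.0235). Acadvl averaged 283 ± 15.01 and 383 ± 25.8 CPM (0.43, SE 0.11, adjusted p = 0.0253), and Eci2 182 ± 21.5 and 255 ± 25.6 CPM (0.49, SE 0.13, adjusted p = 0.0285). Each was higher in 6 of 6 livers, and the groups did not overlap for these 3 nor for Cpt2 and Bdh1, against 1.98% of all genes. Without control replicate 4 the count was 0, with adjusted p of 0.0617, 0.0503 and 0.0588. It was 1 without control replicate 1 or Stat3-deleted replicate 2, 3, 5 or 6, and 5 without tumour-bearing WT replicate 6. Of all genes 2.60% were called in the fit with a count of 0. The share was 2.29 to 3.37% in those with 1 and 6.95% in that with 5. Scaling by library totals alone, which moved the median of all genes to -0.13 and made 139 of 511 calls higher rather than 246 of 544, also gave 0, with 0.0567, 0.102 and 0.0941. Within the lower run of label numbers Cpt2 and Pex11a were higher and Cd36 lower (-0.78, adjusted p = 0.0453), where 2.43% of all genes were called.

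Of the fold changes against control 34 of 42 lay above 0 (81.0%), against 49.1% of all genes, with medians of 0.24 for mitochondrial, 0.22 for peroxisomal, 0.48 for ketone body genes and 0.13 for PPARalpha targets. Cpt2 (0.35, SE 0.12, adjusted p = 0.0949), Bdh1 (0.45, SE 0.16, adjusted p = 0.106), Acat1 (0.51, SE 0.19, adjusted p = 0.119) and Acot12 (0.43, SE 0.14, adjusted p = 0.0775) did not pass the test. Nor did Acot1 (0.85, adjusted p = 0.131), Ppargc1a (0.81, 0.133) and Acsl1 (0.14, 0.749). These were the genes of the compartment of PPARalpha targets and partners that were called between the tumour-bearing groups. As PPARalpha acts on genes at each step of the pathway, this compartment does not hold all its targets. For the 11 genes called between the tumour-bearing groups, the Stat3-deleted mean lay above the control mean for each, and the tumour-bearing WT mean lay below the control mean for each but Acadvl. These genes were called for a higher level in Stat3-deleted than in tumour-bearing WT livers, a choice that favours this order. The share of all genes with this order was not computed. Of the 13 genes with an unadjusted p under 0.05, all were higher, where 9.35% of all genes were higher and 11.5% lower.

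The pathway beyond the 42 was followed in 100 further genes, of which 95 were tested. Against control, tumour-bearing WT livers had 0 of the 95 called by edgeR, with 5 higher and 11 lower at an unadjusted p under 0.05, where 8.63% of all genes were higher and 7.56% lower. Between Stat3-deleted and WT tumour-bearing livers 12 of the 95 were higher and 3 lower, where 2.89% of all genes were higher and 3.23% lower, so that the lower calls were near the share of all genes. Of 22 further mitochondrial acyl-CoA and ketone body genes 3 were higher and 1 lower. Acad10, an acyl-CoA dehydrogenase, rose from 6.75 ± 1.55 to 13.9 ± 0.549 CPM (1.04, SE 0.17, adjusted p = 0.000527), Acsm5, a medium-chain acyl-CoA synthetase, by 0.59 (adjusted p = 0.00538) and Ivd, which breaks down leucine, by 0.47 (adjusted p = 0.0498). Slc16a1, the transporter that carries lactate and ketone bodies across the plasma membrane, fell by 0.57 on the log2 scale, from 71.7 ± 7.44 to 48.4 ± 9.02 CPM (SE 0.12, adjusted p = 0.00649). Of 33 further peroxisomal genes 2 were higher and 0 lower, namely the phytanoyl-CoA hydroxylase Phyh (0.51, adjusted p = 0.0238) and the import docking protein Pex14 (0.74, adjusted p = 0.0138).

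Of 18 genes of fatty acid uptake, activation and lipid droplets 2 were higher and 2 lower. Over all genes 2.89% were higher and 3.23% lower. Plin5, which ties lipid droplets to mitochondria, rose by 0.99 (SE 0.27, adjusted p = 0.0262) and Fabp2 by 0.68 (SE 0.20, adjusted p = 0.0474). Acsl3, an acyl-CoA synthetase of lipid droplets, fell by 0.76 (SE 0.21, adjusted p = 0.0317). Fabp5, a fatty acid binding protein known from skin, fat and macrophages, fell from 42.9 ± 26.2 to 8.72 ± 5.66 CPM, a log2 change of -2.31 (SE 0.45, adjusted p = 0.00252).

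Of 22 regulators and further PPARalpha targets 5 were higher and 0 lower, beside the same 2.89% and 3.23% of all genes. Ppara, the gene of the receptor itself, ran from 132 to 244 CPM (median 194) in tumour-bearing WT and from 241 to 405 CPM (median 285) in Stat3-deleted livers, a difference of 0.63 (SE 0.16, adjusted p = 0.0181). Lpin1, a phosphatidate phosphatase that also acts as a coactivator of PPARalpha, ran from 38.0 to 400 CPM (median 62.3) in tumour-bearing WT and from 342 to 474 CPM (median 365) in Stat3-deleted livers (1.69, SE 0.44, adjusted p = 0.0229). Its highest WT value was that of replicate 6. Ppargc1b, the relative of PGC-1alpha, differed by 0.97 (adjusted p = 0.0435), the fasting-related factor Klf15 by 0.80 (adjusted p = 0.0477) and the fatty acid hydroxylase Cyp4a14, a strongly PPARalpha-dependent gene, by 1.56 (SE 0.47, adjusted p = 0.0491). Against control, 3 of the 95 were higher in Stat3-deleted livers and 1 was lower, where 2.19% of all genes were higher and 2.66% lower. These counts were near the shares of all genes. The higher genes were Lpin1 (2.02, adjusted p = 0.013), Plin5 (1.01, adjusted p = 0.0307) and Pex14 (0.82, adjusted p = 0.0124). The lower one was Slc16a1 (-0.44, adjusted p = 0.0396).

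Levels of cell type markers were set beside these results, and their part in them was not tested. Of all genes, 1.76% were called higher and 0.490% lower in tumour-bearing WT than in control livers. For Stat3-deleted livers the shares were 2.89% and 3.23% against tumour-bearing WT, and 2.19% and 2.66% against control. The summed level of 11 hepatocyte markers lay between 57351 and 86484 CPM in control, between 61917 and 128613 CPM in tumour-bearing WT and between 96602 and 112440 CPM in Stat3-deleted livers. Of the 11, 1 (Ttr) was called higher in Stat3-deleted than in tumour-bearing WT livers. In Stat3-deleted against control livers 1 of the 11 was higher and 1 lower. Neutrophil markers (8 in the table, 4 tested) summed to between 21.0 and 51.0 CPM in control, between 67.9 and 343 CPM in tumour-bearing WT and between 37.8 and 104 CPM in Stat3-deleted livers, with 4 higher in tumour-bearing WT than in control livers and 3 lower in Stat3-deleted than in tumour-bearing WT livers. The 12 Kupffer cell and macrophage markers summed to 490 to 1275, 865 to 2053 and 875 to 2320 CPM, and 4 of them were higher in Stat3-deleted and 1 in tumour-bearing WT than in control livers. Adipocyte markers, which share lipid genes with the list, summed to at most 54.2, 94.5 and 96.1 CPM in the same order. Cholangiocyte and ductal markers (9 in the table, 4 tested) summed to between 30.5 and 53.2 CPM in control, between 40.1 and 125 CPM in tumour-bearing WT and between 27.3 and 49.7 CPM in Stat3-deleted livers, and 1 was higher in tumour-bearing WT than in control and 1 lower in Stat3-deleted than in tumour-bearing WT livers. Of the stellate cell and fibroblast markers 1 of 9, and of the B and plasma cell markers 1 of 2 tested, was lower in each comparison of Stat3-deleted livers with another group. Of 11 endothelial markers 2 were higher in Stat3-deleted than in control livers.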

How the data were processed

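RNA of 18 mouse livers was sequenced with the QuantSeq 3′ FWD kit, per the labels' protocols, after storage in TRIzol and isolation on RNeasy Mini columns. Reads were aligned with STAR to mm10, per the submitters' processing notes. How reads were counted, on which annotation and with or without strand is not given in the sources used here. A gene therefore cannot be told apart from an overlapping or antisense one. The authors deposited raw counts per gene symbol, not normalized, with 1 column per library. Of the 24421 symbols 27 had become date numbers and were left out.

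Counts were tested with edgeR 4.0.16 in R 4.3.3 (TMM, filterByExpr, glmQLFit with all 18 libraries and 1 coefficient per group, 15 residual degrees of freedom). Of the 24394 symbols, 11218 were tested. Two-sided p were adjusted over all genes tested by the Benjamini-Hochberg method, with a threshold of 0.05. SE is that of the log2 fold change. The common biological coefficient of variation was 0.281. Log2 CPM used a prior count of 2.

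The 42 genes, the compartments and the further lists were chosen with earlier results of these data known. All 42 genes are accounted for. Full statistics were given for every gene that passed the test and for up to 4 per compartment and comparison with the smallest p, and up to 4 were named per further list and comparison. Cyp4a14 and the adjusted p in single alternatives go beyond this rule and were chosen after their values were seen.

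The fits were repeated with DESeq2 1.42.0 and with voom of limma 3.58.1 and quality weights. Scaling was changed to RLE factors or to library totals, the filter was dropped or raised to 1 CPM in 6 libraries, and the fit was limited to the 2 groups compared. Further alternatives were the replicate number or the run of label numbers as a block, each run alone, summed counts of near-identical paralogs, and each library left out in turn. The procedure was tested on simulated data, with changed genes drawn at random and not from the list. Of 50 genes raised 1.5-fold it recovered 11, 8 and 8 in the 3 comparisons, and of 50 raised 2-fold 41, 35 and 29. A gene that did not pass the test may therefore still differ. Promoters and positions came from RefSeq on GRCm38.p6. Python 3.11.15, pandas 2.3.3, numpy 2.4.6 and matplotlib 3.10.9 were used for sequences and plots.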

Additional observations from a re-analysis of the deposited data

Results flagged for a closer look

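In 18 of 138 sets of 6 values (1 gene or compartment mean in 1 group), the highest or lowest liver stood apart from the rest by more than Dixon's 95% critical value. For independent sets with a normal spread, chance gives about 1 of 20. Here the CPM were not logged, the sets share livers, and compartment means share genes with other sets. That rate therefore need not apply. Tumour-bearing WT replicate 6 accounted for 6 of the 18. It was the highest of its group for Cpt1a (231.715 CPM), Slc25a20 (173.295 CPM), Acot12 (94.7445 CPM), Acot3 (20.1294 CPM) and Acot4 (17.8592 CPM) and the lowest for Bdh1 (81.7285 CPM). Tumour-bearing WT replicate 5 was the highest for Cpt2 (156.39 CPM) and Acot2 (43.6765 CPM).

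In the control group replicate 2 was the highest for Acot3 (55.8351 CPM), Acot4 (26.2256 CPM) and the mean of the peroxisomal genes (0.4538 above the control mean on the log2 scale), and replicate 5 for Acads (427.868 CPM). Acot3 and Acot4 are neighbours on chromosome 12. Among Stat3-deleted livers replicate 6 was the highest for Acot2 (68.9109 CPM), Eci1 (198.458 CPM) and Pdk4 (2.06862 CPM), replicate 4 for Acadm (324.609 CPM) and Slc27a2 (613.266 CPM), and replicate 1 the lowest for Crot (423.634 CPM).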

How the results depend on the processing

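For the genes called between Stat3-deleted and WT tumour-bearing livers, 115 of 120 values under other settings kept their direction and their side of the threshold, 5 missed the threshold and 0 changed sign. With 1 library left out, 182 of 198 did and 16 missed it. Acadl missed it with the run of label numbers as a block (adjusted p = 0.0905) and in the lower run alone (0.14), Acot2 with that block (0.0546), and Acadvl without a filter (0.0604) and with the 2 groups alone (0.0628). For the 3 genes higher against control, 27 of 33 and 39 of 54 values kept their side.

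Numbers of the 42 genes called moved as follows, and the cause was not tested. Tumour-bearing WT against control gave 3 with DESeq2, 3 with library totals, 2 with voom, and 0 to 2 with 1 library left out (2 without tumour-bearing WT replicate 1; 1 without replicate 2, 5 or 6 or Stat3-deleted replicate 6). Stat3-deleted against WT tumour-bearing livers gave 19 with voom, 18 in the lower run alone (17 higher, and Crot lower) and 7 to 16 with 1 library left out. Stat3-deleted against control gave 0 with library totals, 6 with the 2 groups alone, 8 with voom, 5 with the run as a block (Cd36 lower among them) and 0 to 5 with 1 library left out (1 without control replicate 1 or Stat3-deleted replicate 2, 3, 5 or 6; 5 without tumour-bearing WT replicate 6).

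With the replicate number as a block the counts were 1 (Acsl1, lower), 13 and 3. Same-numbered tumour-bearing WT and control livers carry successive label numbers except in replicate 5. Whether they were matched is not stated. Of 6 same-numbered pairs 1, 2 and 1 had a correlation over 0.1, at most 0.309. The same number was the best partner in 1, 1 and 0 of 6, and the main fit did not pair the livers. Over all genes, edgeR called 252, 686 and 544. Counts that moved by over 1.5 times were 462 (DESeq2), 128 (2 groups alone), 49 and 50 (lower and higher run alone) and 132 to 462 (1 library left out) between the WT groups, 1097 (voom) and 1063 (lower run) between the tumour-bearing groups, and 860 (DESeq2), 894 (2 groups alone), 1318 (voom), 280 (lower run) and 258 to 783 (1 library left out) between Stat3-deleted and control livers. With library totals 115 of 292, 424 of 694 and 139 of 511 calls were higher in the 3 comparisons, where TMM gave 197 of 252, 324 of 686 and 246 of 544. Depth limits Pdk4, Ehhadh, Acot3 and Acot4, each under a mean of 10 CPM.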

Other observations

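Within the tumour-bearing WT group, the mean of all 42 genes on the log2 scale, relative to control, was -0.11, -0.12, -0.52, -0.55, -0.07 and -0.31 in replicates 1 to 6. Saa1 stood at 7264, 5493, 15579, 48555, 11166 and 21682 CPM in the same livers. This ordering was looked at after the values were seen, and no test was run on it.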
